A study of Mus musculus with 3 samples.

Results

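The 934 genes described here had H3K36me3 signal over the gene body that was lower at each later stage of fetal mouse pancreas development. They are 3.84% of the 24318 identified genes with values from all 3 stages. The authors deposited 3 signal columns per gene, headed PR, GB and SE, and GB is taken as the gene body because its recovered windows often match gene lengths. Members were chosen by their GB values alone. A gene was a member when GB was above 0 at all stages, at least 0.006 at E11.5 and at most 0.005 at E15.5, in deposited units. GB also had to be at most 80% of the value of the stage before at both later stages, and at least 2-fold lower over the whole span. Their GB values are therefore given as a description only, with no test.

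The libraries came from wild-type C57BL/6 embryos of 3 ages, E11.5, E13.5 and last E15.5. Epithelial cells of the pancreas were marked by EpCAM, a surface protein of epithelia, sorted by flow cytometry and profiled by CUT&Tag with an antibody to H3K36me3. CUT&Tag tethers a transposase to the antibody, so that DNA beside the mark is cut and tagged for sequencing. With a single library for every age, nothing was tested and no spread between embryos could be measured. The labels do not say how many embryos went into a library.

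H3K36me3 is written by SETD2, a methyltransferase that travels with elongating RNA polymerase II, so the mark lies over the bodies of transcribed genes and usually grows towards their far end. It is bound by readers such as DNMT3B, which methylates DNA within gene bodies, and it helps to keep transcription from starting inside genes. During the stages sampled, the pancreatic epithelium passes from multipotent progenitors to a branched tissue in which acinar, duct and endocrine cells separate. Loss or gain of the mark over a gene body is commonly read with transcription, which was not measured in these files.

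Which genes the members are could not be given. The deposited rows carry Ensembl identifiers alone, and the reference table used here matched 0 of them, so no gene name, chromosome position or sequence is printed. Markers of epithelium, mesenchyme, endothelium, blood and nerve could not be checked for the same reason. Members are therefore described by window length, signal and rank, and only 2 identifiers are given.

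PR and SE came in whole multiples of one step per library, which gives the amount of signal behind it. In stage order the step was 0.16188, 0.16743 and 0.16292 once PR was multiplied by 6000 and SE by 12000, the window sizes at which all values became whole. Of the step numbers above 0 in PR, 93.0, 92.3 and 95.1% were even in stage order, and 2 steps was the commonest number in each library. No source used here says what a step stands for, so step numbers are printed as a measure of depth without an interval for counting error. The GB window length of a gene was recovered as the length at which its values became whole steps in all libraries, and all 934 members had one.

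Over the members, GB at E11.5 ranged from 0.006001 to 0.0790, with a median of 0.00966. At E13.5 it ranged from 0.000136 to 0.0242, with a median of 0.00490, and at E15.5 from 5.71e-06 to 0.00499, with a median of 0.00148. Median GB over all identified genes was 0.00432, 0.00421 and 0.00371 in the same order. The rule's floor at E11.5 lies above the median of all genes, so the members' start above it was fixed by the choice. By their median, members were close to genes at large at E13.5. They lay below them at E15.5, where the rule asks for low GB. In such bulk libraries fewer marked cells and less of the mark per cell cannot be told apart. The median fold of E11.5 over E15.5 was 7.19, with 10% of members under 2.54 and 10% over 58.8. The second step was the steeper one for most members, since 642 of 934 had their larger log2 difference after E13.5 and 292 before it. The median fold was 1.88 in the first step and 3.06 in the second. Over all identified genes, with 0.001 added, GB was at least 2-fold lower in 15.6% in the first step and 20.2% in the second. It was at least 2-fold higher in 14.2% and 19.5%, so such differences were more frequent in the second step at large, in both directions.

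Of 7483 genes that were above 0 at all stages and reached 0.006 at E11.5, the members made up 12.5%. The other 6549 genes that began as high serve as the main comparison below. Their median GB was 0.00898, 0.00718 and 0.00968 in stage order. The same rule with the stages turned round found 1227 genes, 5.05% of those identified, so that falling genes made up 43.2% of the genes found in either direction. Division of each library by its mean GB raised that share to 68.2%, with 1423 falling and 662 rising genes, and 866 of the 934 members met the rule under it. Division by the median GB gave 751 falling and 1492 rising genes, and a falling share of 33.5%. Quantile normalization of GB, which matches the libraries by rank, gave 725 falling and 969 rising genes. Its falling share of 42.8% was close to that of the deposited values. The balance of falling and rising genes therefore rests on how the libraries are scaled to each other, which no source states.

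**Figure D1:**
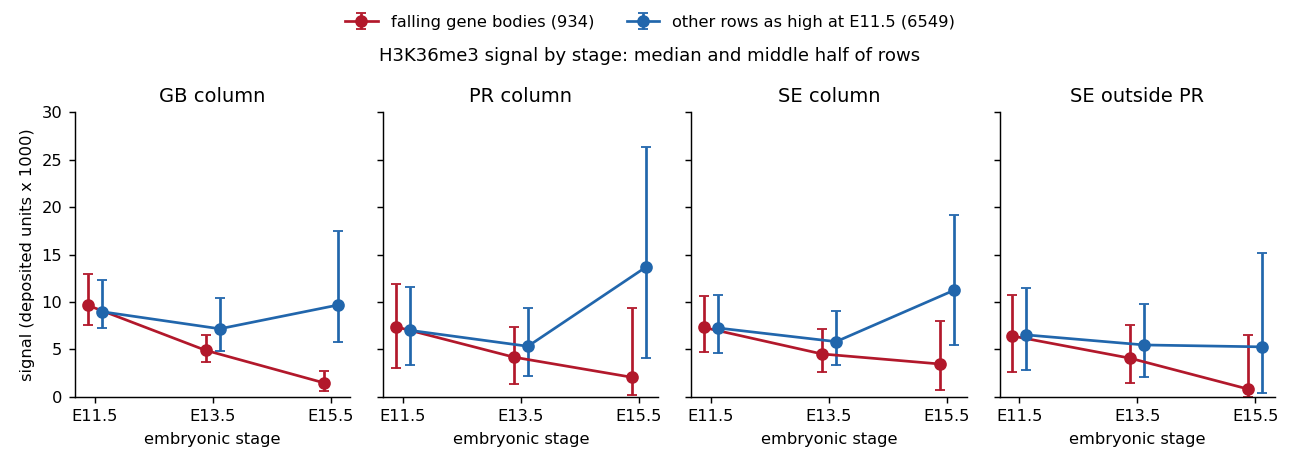
Signal in deposited units times 1000 (vertical axis) by stage for GB, PR, SE and the part of SE outside PR. Points are medians and bars span the lower to the upper quartile, for the 934 falling gene bodies and the 6549 other genes as high at E11.5; median PR of the members was 0.00206 in deposited units at E15.5, against 0.0137 in the other genes.

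The median window of members was shorter than that of genes at large, and that of rising genes was shorter still. The members' median GB window was 14635 positions, with 10% under 4531 and 10% over 51954. The median was 17409 positions in the other genes as high at E11.5. It was 19402 in all genes with a length and 10107 in the 1227 rising genes. Windows of at least 50000 positions made up 10.9% of members, 16.4% of the comparison genes, 24.3% of all genes and 6.03% of rising genes. Windows under 6000 positions made up 16.7% of members and 30.1% of rising genes. As a share of genes that reached the E11.5 floor, members were 12.9% in windows under 6000 positions, 14.2% from 6000 to 12000, 13.8% from 12000 to 25000 and 8.67% at 50000 or more.

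The size of the GB difference was tied to window length, in members and in other genes alike. The median fold was 16.9 in the 156 members under 6000 positions, 11.6 in the 222 from 6000 to 12000, 7.16 in the 285 from 12000 to 25000, 4.21 in the 169 from 25000 to 50000 and 2.94 in the 102 of 50000 or more. Across the 934 members, Spearman's rho between fold and length was -0.523, with all points sharing the same libraries and the length entering the GB value. The signal behind the values differed as much. Median steps in the window at E15.5 were 19 in members under 6000 positions and 1131 in members of 50000 or more. At E15.5, 108 members had 10 steps or fewer in the whole window, 48 of them under 6000 positions and 1 of them at 50000 or more. Of all 20670 genes with a length, empty windows included, 2271 had as few at that stage. Among the 6549 comparison genes 46 had. Short members thus combined the larger folds with the fewest steps, and the part of sampling in those folds was not tested.

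**Figure D2:**
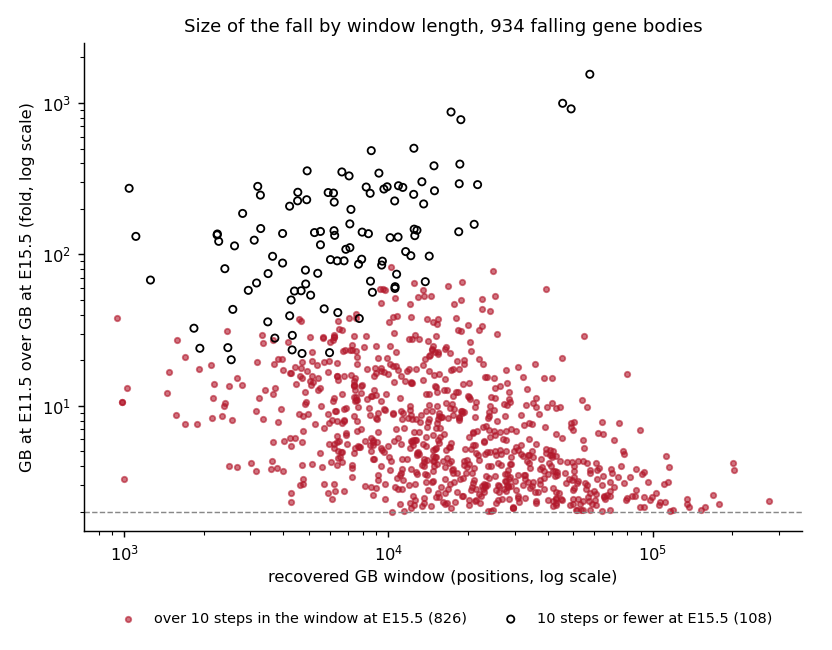
GB at E11.5 over GB at E15.5 (vertical, log scale) against the recovered window length (horizontal, log scale), 1 point per member, with the dashed line at 2-fold. Open circles are the 108 members with 10 steps or fewer in the window at E15.5, among them the member with the largest fold, 1547.

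The member with the largest fold, ENSMUSG00000113986, had a window of 57840 positions and GB at 0.00883, 0.00652 and 5.71e-06 in stage order. Behind these values stood 3156, 2254 and 2 steps, so a window with ample signal at both early stages was almost empty at E15.5. Its PR was 0.0106, 0 and 0.000163. The member with the next largest fold, 995, had a window of 45641 positions with 2028, 980 and 2 steps, and PR at 0.0105, 0.00301 and 0. The third, with a fold of 914 in 49141 positions, had 1864, 1150 and 2 steps. All 10 members with the largest folds among windows of at least 6000 positions held 1 or 2 steps at E15.5.

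The longest members showed smaller differences on far more signal. The longest had a window of 276538 positions with 14081, 10246 and 5912 steps in stage order, and GB at 0.00824, 0.00620 and 0.00348. Its PR was 0.0110, 0.00502 and 0, and its SE 0.0137, 0.00385 and 0. Gene body and PR window were thus lower together at each stage, and PR and SE were listed at 0 at the end while the body still held signal. The next, of 202462 positions, had GB at 0.00793, 0.00580 and 0.00211 on 9919, 7012 and 2618 steps, with PR at 0.0142, 0.00687 and 0.00625. One of 201304 positions had GB at 0.00780, 0.00430 and 0.00185, with PR at 0.0113, 0 and 0. Among the 10 longest, GB folds lay between 2.06 and 4.21.

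Not every long member was lower in PR. The fourth longest, of 178225 positions, had GB at 0.00613, 0.00447 and 0.00273, and PR at 0, 0.00413 and 0.00337. The sixth longest, of 158295 positions, had GB at 0.00619, 0.00405 and 0.00288, while PR was 0.00157, 0.00943 and 0.0278. In that gene the body was lower at each stage and the PR window higher at each stage.

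Among windows of at least 6000 positions, the 5 highest gene bodies at E11.5 lay between 0.00119 and 0.00474 at E15.5, below the ceiling that the rule sets. ENSMUSG00000092369, with a window of 7446 positions, had GB at 0.0280, 0.0101 and 0.00184 on 1286, 450 and 84 steps, and PR at 0.0373, 0.00290 and 0.0118. The next, of 6855 positions, had GB at 0.0277, 0.0131 and 0.00119 and PR at 0.0183, 0.00505 and 0.00130. The third, of 13775 positions, had GB at 0.0274, 0.00430 and 0.00135 and PR at 0.0326, 0.00815 and 0.00744. The fourth, of 6194 positions, kept the most at E15.5, with GB at 0.0265, 0.00746 and 0.00474 on 1014, 276 and 180 steps, and PR at 0.0185, 0.0153 and 0. PR was lower at E15.5 than at E11.5 in all 5 of the highest, but in the first of them it was higher at E15.5 than at E13.5. The shortest member, of 936 positions, had GB at 0.0790, 0.010 and 0.00209, on 457, 56 and 12 steps.

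PR and SE were lower too in nearly one member of every 2, a larger share than in other genes. Ratios for these columns are log2 of the later over the earlier value, each with 0.001 added, and a gene is called lower or higher at 2-fold. PR at E15.5 was lower than at E11.5 by at least 2-fold in 462 of 934 members, 49.5%, against 26.7% of all identified genes and 20.0% of the other genes as high at E11.5. It was higher by at least 2-fold in 177 members, a share of 18.95%, against 38.6% of all identified genes and 46.9% of the comparison genes. The median log2 ratio of PR was -0.95 in members, 0.26 over all identified genes and 0.84 in the comparison genes. GB, PR and SE come from the same libraries and partly the same positions, so this is a description of the members and not separate evidence that they changed.

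SE gave a similar picture. Of the members, 449, or 48.1%, were at least 2-fold lower in SE at E15.5 than at E11.5 and 115 were at least 2-fold higher, against 24.0% and 33.2% of all identified genes and 16.1% and 36.4% of the comparison genes. No identified gene had a smaller sum in SE than in PR, so PR was treated as lying inside SE, and subtraction gave the 6000 positions of SE that PR leaves out. In that outer part 514 members (background 36.6% of all identified genes and 36.9% of the comparison genes) were at least 2-fold lower and 140 were at least 2-fold higher (background 25.1% and 28.0%). The members' shares were 55.03% and 14.99%. The outer part was lower in many genes at E15.5, and the members' share lay closer to the background there than in PR. Its median log2 ratio was -1.30 in members, -0.22 over all identified genes and -0.17 in the comparison genes.

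**Figure D3:**
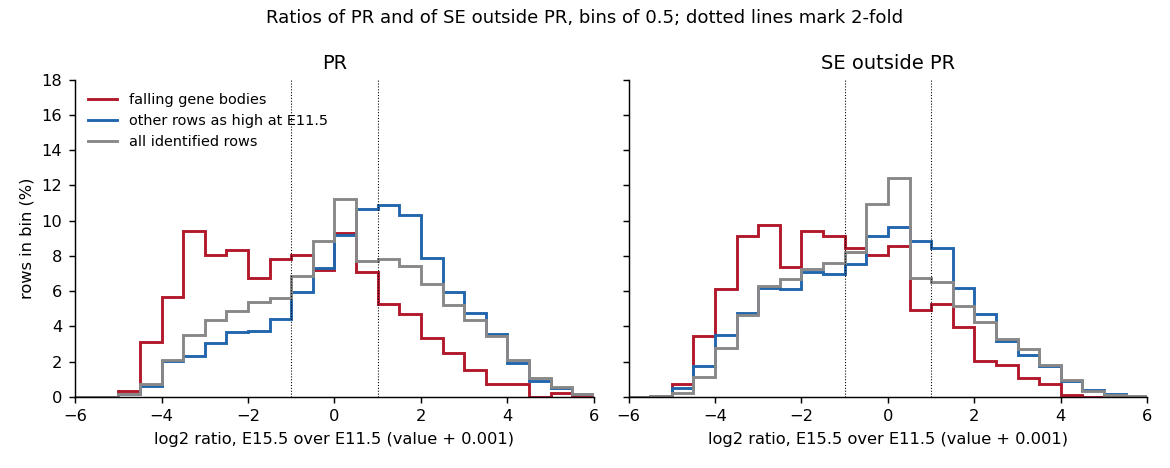
Share of genes (vertical, in percent) by log2 ratio of E15.5 over E11.5 (horizontal, bins of 0.5) for PR and for SE outside PR, in members, in the other genes as high at E11.5 and in all identified genes. Dotted lines mark 2-fold; 49.5% of members lie at or left of the lower line in PR, against 20.0% of the comparison genes.

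The steps between stages differed by column. Between E11.5 and E13.5, PR was at least 2-fold lower in 377 members, 40.4%, against 28.4% of all identified genes and 32.3% of the comparison genes, and at least 2-fold higher in 145, against 25.9% and 19.3%. Between E13.5 and E15.5 it was at least 2-fold lower in 368, 39.4%, against 26.4% and 16.9%, and at least 2-fold higher in 246, 26.3%, against 40.2% and 53.1%. Median PR of the members was 0.00739, 0.00419 and 0.00206 in stage order, but mean PR was 0.00831, 0.00503 and 0.00644. At E15.5 the mean lay well above the median while the upper 10% of members held more than 0.0181. PR was at most 80% of the earlier value in each step in 229 members, 24.5%, against 10.1% of all identified genes and 8.14% of the comparison genes. The same course was seen for SE outside PR in 216, 23.1%, against 13.7% and 14.8%. In 244 members, 26.1%, PR was at most 80% of the value before at E13.5 and then at least 25% higher at E15.5, a share close to the 26.3% of all identified genes and below the 37.5% of the comparison genes.

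PR was listed at 0 at E15.5 in 178 members, 19.1%, and at E11.5 in 22, 2.36%. Over all identified genes PR was listed at 0 in 22.1% at E15.5 and 7.59% at E11.5. In the comparison genes the shares were 6.50% and 1.79%. In 174 members, 18.6%, PR was above 0 at E11.5 and listed at 0 at E15.5. That share was 18.4% over all identified genes and 6.32% in the comparison genes. The members' share of empty PR windows at the last stage thus lay nearer to that of genes at large. SE outside PR was listed at 0 at E15.5 in 295 members, 31.6%, against 32.1% of all identified genes and 18.2% of the comparison genes.

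The order of the 3 columns within a gene was also compared. At E11.5 GB was the highest of GB, PR and SE in 601 members, 64.3%, a share near the 61.4% of the comparison genes, against 41.8% of all identified genes. At E15.5 GB was the lowest of the 3 in 476 members, 51.0%, in 39.9% of the comparison genes and in 42.6% of all identified genes. PR was above GB in 28.7, 41.3 and 57.8% of members in stage order, in 29.8, 34.7 and 54.1% of the comparison genes and in 44.9, 43.2 and 51.2% of all identified genes. The rule asks for high GB at E11.5 and low GB at E15.5, so part of these shares is fixed by the choice of members.

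The PR ratio was spread continuously over the members, and its 2-fold limits are used here only to describe them in 3 ranges, whose PR course the limits fix. The 462 with PR at least 2-fold lower had median PR at 0.00969, 0.00430 and 0.000313 in stage order, with median GB at 0.00980, 0.00503 and 0.00127. The 295 between the 2-fold limits had median PR at 0.00675, 0.00419 and 0.00695, lowest at E13.5. The 177 with PR at least 2-fold higher had median PR at 0.00227, 0.00391 and 0.0154, although their median GB, 0.00903, 0.00476 and 0.00160, was close to that of the first class. Their windows were longer, with a median of 17519 positions against 12826 in the first class. Outside PR, the same 177 genes had a median of 0.00702, 0.00463 and 0.00125, the last of these close to the 0.00130 of all identified genes. Among them, 98 were at least 2-fold lower in SE outside PR, which is 10.5% of all members, against 13.0% of all identified genes and 16.5% of the comparison genes with the same pair of calls. The pattern of higher PR with a lower outer part was thus no more frequent in members than elsewhere.

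PR and the outer part of SE were both at least 2-fold lower in 265 members, 28.4%, against 11.1% of all identified genes and 7.94% of the comparison genes. Both were at least 2-fold higher in 34 members, 3.64%, against 11.7% and 14.4%. These 265 genes were thus lower at E15.5 in every window, but GB was so by the rule and SE follows from PR and its outer part.

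Shared positions can matter for reading PR and SE in short members. In all 156 members under 6000 positions the GB sum was within the SE sum at every stage. It was within the PR sum in 10 of 10 members under 1500 positions and in all 577 identified genes of that length. In members from 12000 to 25000 positions it was within the PR sum in 5 of 285 at E11.5 and 116 of 285 at E15.5. Over all genes of that length it was so in 405 and 1153 of 4478. Such bodies are too long to lie inside PR, so a low GB sum alone can meet this comparison. PR and SE are long enough to hold a short body, but the sums alone cannot show that they do. Windows of 6000 and 12000 positions can cover only part of a longer body. In 41 members under 3000 positions the GB sum was within PR at all stages, and the body was taken to lie inside PR. The rest of the PR window had a median of 0.00542, 0.00515 and 0.00170 in stage order, but a mean of 0.00797, 0.00839 and 0.0136. Median and mean thus differed in direction. There 18 of the 41 were at least 2-fold lower at E15.5 than at E11.5 and 13 at least 2-fold higher, with a median log2 ratio of -0.35. In the 276 comparison genes of that kind, 76 were at least 2-fold lower and 122 at least 2-fold higher, with a median log2 ratio of 0.34. Over all 1578 identified genes of that kind, 501 were at least 2-fold lower and 537 at least 2-fold higher, with a median log2 ratio of 0.

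The lower PR of members was also seen in long windows. In the 556 members of at least 12000 positions, PR was at least 2-fold lower in 247, 44.4%, against 24.3% of all genes of that length and 20.5% of the comparison genes, and at least 2-fold higher in 123, 22.1%, against 42.1% and 48.5%. PR was at least 2-fold lower in 57.7% of members under 6000 positions, 56.3% from 6000 to 12000, 46.3% from 12000 to 25000, 45.0% from 25000 to 50000 and 38.2% of 50000 or more. Genes at large lay between 23.4 and 27.8% in the same classes, and the comparison genes between 16.2 and 21.5%. PR at least 2-fold higher went the other way, from 21 of 156 members in the shortest class to 29 of 102 in the longest, or 28.4%. The shares in those classes were 40.3 and 42.1% of all identified genes and 43.1 and 49.6% of the comparison genes. In the 102 members of 50000 positions or more, 39 were at least 2-fold lower in PR, with a median log2 ratio of -0.13 against 0.46 in all genes of that length. SE outside PR was at least 2-fold lower in 54 of these 102, 52.9%, and in 37.5% of all genes of that length.

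**Figure D4:**
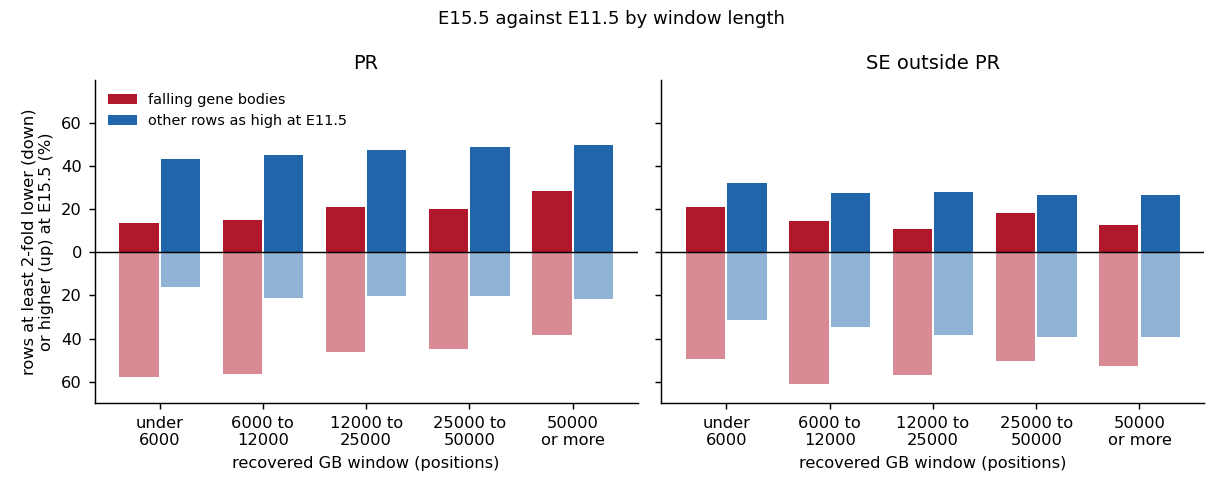
Share of genes (vertical, in percent) at least 2-fold higher (up) or lower (down, lighter) at E15.5 than at E11.5, by recovered GB window length, for PR and for SE outside PR, in members and in the other genes as high at E11.5. In PR the members' share of lower genes is 57.7% in the shortest class and 38.2% in the longest, above the comparison genes in every class.

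Among the members, a larger GB difference went with lower PR, in classes made from the GB values that chose them. Over all identified genes, not split by GB fold, PR was at least 2-fold lower in 26.7%. PR was at least 2-fold lower in 38.4% of the 271 members with a GB fold from 2 to 4, 45.0% of the 222 from 4 to 8, 54.4% of the 182 from 8 to 16 and 61.4% of the 259 at 16 or more. The median log2 ratio of PR was -0.37, -0.63, -1.27 and -1.82 in that order. Median windows were 28886, 15683, 11211 and 8854 positions, so these classes differ in length as well, and the part of length was not tested. Across members the log2 ratios of GB and PR, E15.5 over E11.5, had a Pearson correlation of 0.214 and a Spearman correlation of 0.201 (934 genes). In the 556 members of at least 12000 positions these were 0.113 and 0.108, and in the 156 under 6000 positions 0.323 and 0.322. All points share the 3 libraries, GB and PR come partly from the same positions, and the rule limits the range of the GB ratio. The part of shared positions in this link was not tested.

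The extremes of PR among members of at least 6000 positions show how far the body and the PR window can part. The lowest PR ratio belonged to a gene of 23941 positions with PR at 0.0270, 0.00692 and 0.000108 and GB at 0.0157, 0.00925 and 0.00173. It had 1000, 248 and 4 steps in PR. The next, of 20977 positions, had PR at 0.0232, 0.0107 and 0 and GB at 0.00898, 0.00236 and 0.00163. The highest PR ratio belonged to a gene of 17519 positions with PR at 5.33e-05, 0.00391 and 0.0380, on 2, 140 and 1400 steps, while GB was 0.00614, 0.00256 and 0.00160. The fifth highest, of 24783 positions, had PR at 0.000593, 0.000587 and 0.0298, while GB went from 1256 steps to 16, at 0.00820, 0.00493 and 0.000105. In both genes SE outside PR was near or at 0 at E15.5, at 0.000108 and 0.

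Few members share windows. Of the 876 members with SE above 0 at all stages, 6 in 3 pairs had the same PR and SE as another member in all libraries. With any identified gene included, 41 members, 4.68%, shared both values, against 5.38% of all identified genes with SE above 0.

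The thresholds cut through a continuous range. Just inside the E11.5 floor were genes with GB at 0.006001 and 0.006005, and just outside genes at 0.005993 and 0.005981 that met the rest of the rule. Just inside the E15.5 ceiling were 0.00499 and 0.00499, and just outside 0.005006 and 0.005013. In the first step the nearest folds were 1.252 and 1.255 inside and 1.2499 and 1.2488 outside, and in the second 1.251 and 1.254 inside and 1.248 and 1.248 outside. For the whole span they were 2.002 and 2.006 inside and 1.997 and 1.992 outside. A further 519 genes met all but the E11.5 floor and 65 all but the E15.5 ceiling. Another 397 genes had GB at 0 at E15.5 with the floor and the first step met, and the rule leaves them out.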

How the data were processed

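H3K36me3 CUT&Tag was analysed in 3 libraries, 1 per stage, with a mean depth of 20000000 reads per sample per the labels. For the middle stage, the day on the sample labels was used, from which the design text departs slightly. Bowtie2 2.4.2 and mm10 are listed, per the submitters' processing notes. Filters, gene models, scaling and reads per library are in none of those sources. The authors deposited signal for 25493 rows per file in columns PR, GB and SE. The 1175 rows without an identifier, 4.61%, were left out, and 1 identified row had an empty SE. Rows were joined on the identifier and used as deposited. Steps were fitted to PR sums over 6000 positions, and 100% of PR and SE sums above 0 were whole steps within 0.02. In 1498 simulated GB windows over the 3 stages 95.0% of lengths were recovered exactly and 4.41% came out too short by a factor of 2. No simulated window was long and almost empty at E15.5, so recovery was not tested for members of that kind. Of real windows from 50000 to 600000 positions, 33.9% equalled a RefSeq gene length of GRCm38.p6, against 4.48% after shifts. Ratios are log2(value + 0.001). The members and gene lists were chosen with earlier results of these data known. Gene lists fixed for naming could not be used, since 0 identifiers matched, so the genes given are the first ranks by window length, GB fold, PR ratio and GB at E11.5, the last 3 in windows of at least 6000 positions, with the shortest member added after its values were seen. Alternatives covered scaling, the rule's limits, the pseudocount, window length and the fold. Python 3.11.15, numpy 2.4.6 and pandas 2.3.3 were used.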

Additional observations from a re-analysis of the deposited data

How the results depend on the processing

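No paired analysis was possible because the 3 ages have a single library apiece, and for the same reason none could be left out. Alternatives gave 59 values for 7 results. Of these, 31 lay within 1.5 times the reported count or inside the 95% interval of the reported share or median, and 28 moved further. That interval treats the members as independent, though they share 3 libraries. It only sorts the alternatives and measures no uncertainty. Among the medians 0 changed sign, which counts and shares could not do. A stricter floor or length limit leaves fewer genes by construction, and for the other moved values the cause was not tested. Limits on steps per window and on shared windows were added after the values were seen. The count of 934 became 1423 after division by the mean GB, 426 with an E11.5 floor of 0.010 and 102 in windows of at least 50000 positions. It was 826 with over 10 GB steps at E15.5. Median log2 ratios, E15.5 over E11.5, for PR, SE and SE outside PR, -0.95, -0.91 and -1.30 as reported, were -1.39, -1.09 and -2.01 with a pseudocount of 0.0001 and -0.48, -0.53 and -0.56 with 0.005. PR and SE were -1.69 and -1.50 after division by the mean of the column, which moved the median of all genes to -0.23 and -0.25. SE was -0.73 after division by the median GB, which put the median of all genes at 0.42 in PR and in SE. PR and SE outside PR were -0.55 and -0.55 in members above 0 at all stages, and PR -0.13 in windows of at least 50000 positions. Shares at least 2-fold lower, 49.5, 48.1 and 55.03%, were 53.5, 52.0 and 60.6% with a pseudocount of 0.0001, 33.1, 27.6 and 32.8% with 0.005, and 56.3, 56.3 and 61.3% at 1.5-fold. Shares of all identified genes were not computed with those pseudocounts or at 1.5-fold. The members' shares there cannot be set against the background given above. PR and SE were 61.03 and 61.3% after division by the column mean, against 35.8 and 32.6% of all identified genes. SE was 44.4% after division by the median GB, against 22.0% of all identified genes. PR was 38.2% in windows of at least 50000 positions, against 23.4% of all genes of that length. Depth limits the members under 6000 positions most.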
